A study of Homo sapiens with 9 samples.

Results

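Transcript levels of genes that repair DNA by homologous recombination, through the Fanconi pathway or by mismatch repair, and of the replication checkpoint genes that work with them, were followed in A375P cells treated with inhibitors of the RAF-MEK-ERK pathway. A list of 35 genes was named for this purpose, with earlier results of these data known. A gene entered when a row of the array carried its symbol alone. Where there were several such rows, the one with the highest mean over the 9 columns was taken. On this rule 30 of the 35 genes were measured, out of 17047 genes with such a row. FANCL and ATRIP share their row with another gene, no row carried the symbols BRCA2, FANCA and FANCD2, and these 5 are not analysed here as single genes. A375P is an established human melanoma line, and the series title names V600E BRAF, the mutant RAF kinase that keeps the pathway switched on in such cells. The cells received the solvent DMSO, 1 µM PD184352, an inhibitor of MEK, or 0.4 µM PLX4720, an inhibitor of RAF, and each treatment was harvested at 2, 6 and 24 h. There was 1 column of values for each of these 9 combinations and so no replicate. The design text mentions triplicates, but the sources used here do not say whether a column is a single array or a mean. Each column is called an array below. All cells came from 1 line.

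Homologous recombination copies the sequence of the sister chromatid to mend a broken DNA end, which confines it to cells that have begun or finished copying their genome. The Fanconi pathway unhooks crosslinks between the strands at stalled replication forks: a core complex attaches ubiquitin to the pair FANCD2 and FANCI, which then recruits nucleases and recombination proteins. Mismatch repair removes copying errors behind the fork, and the ATR and CHEK1 kinases hold back the cell cycle while forks are stalled. Many of these genes are transcribed most strongly as cells pass from G1 into S phase, under control of E2F factors. In a bulk sample, fewer cells in S phase and less RNA in each cell cannot be told apart.

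Of the 17047 genes, the dimmest 25% were left out and 12785 were tested, among them all 30 repair genes. The median intensity of an array lay between 98.96 and 102.4, and the 99th percentile lay between 1681 and 1754 with DMSO and between 1550 and 1654 with an inhibitor. Of 11 melanocyte markers 8 had a row and 7 were bright enough to be tested, against 16 and 9 of 20 markers of epithelial cells, leukocytes, endothelium and fibroblasts. At 24 h with inhibitor 6 of the 7 melanocyte markers rose (S100B, a calcium-binding protein of pigment cells, at 0.84, SE 0.09). MITF (0.22, SE 0.10) was not called. Of the 9 markers of other cells 0 were called in either direction. Of all tested genes 12.5% were called higher and 19.2% lower at 24 h. The mean level of the 8 melanocyte markers ran from 8.37 to 8.47 (log2) with DMSO and from 8.28 to 9.23 with an inhibitor, and the highest mean of another cell type's list on any array was 6.83. The part of the melanocyte rise in the results below was not tested. Of 10 feedback genes of the ERK pathway, 9 were called lower at 24 h, with SPRY4, an inhibitor of receptor signalling, at −4.06 (SE 0.25).

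At 24 h the repair genes were low with both inhibitors. Of the 30 genes 28 were called lower than in DMSO, 0 were called higher, and FANCF and RMI2 did not pass, against 19.2% of all tested genes called lower and 12.5% called higher. The median change of the 30 was −1.00 on the log2 scale, beside −0.01 over all tested genes. The largest changes were those of the nuclease gene EXO1 (−2.04, SE 0.19), the recombination gene XRCC2 (−2.01, SE 0.20) and the checkpoint adaptor gene CLSPN (−2.00, SE 0.17), each about a 4-fold difference, and the smallest was that of RMI2 (−0.18, SE 0.09). For 28 of the 30 genes, all but ATR and FANCF, both inhibitor arrays of 24 h read below each of the 7 other arrays, as was the case for 22.6% of all tested genes. The 30 genes were chosen with earlier results of these data known, so their counts do not stand for the pathways as a whole. Of 35 further tested recombination, Fanconi and mismatch repair genes, 16 were called lower and 2 higher, with a median of −0.20. Changes are differences of log2(intensity + 1), which understates the change of dim genes. Tests were limma's, with Benjamini-Hochberg adjustment over all 12785 genes and a call at an adjusted p below 0.05, and SE is limma's standard error. In this fit the mean of the PD184352 and PLX4720 arrays was set against the single DMSO array of the same time, so the spread is that between compounds, which are not replicates of each other, and not that between cultures.

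**Figure D1:**
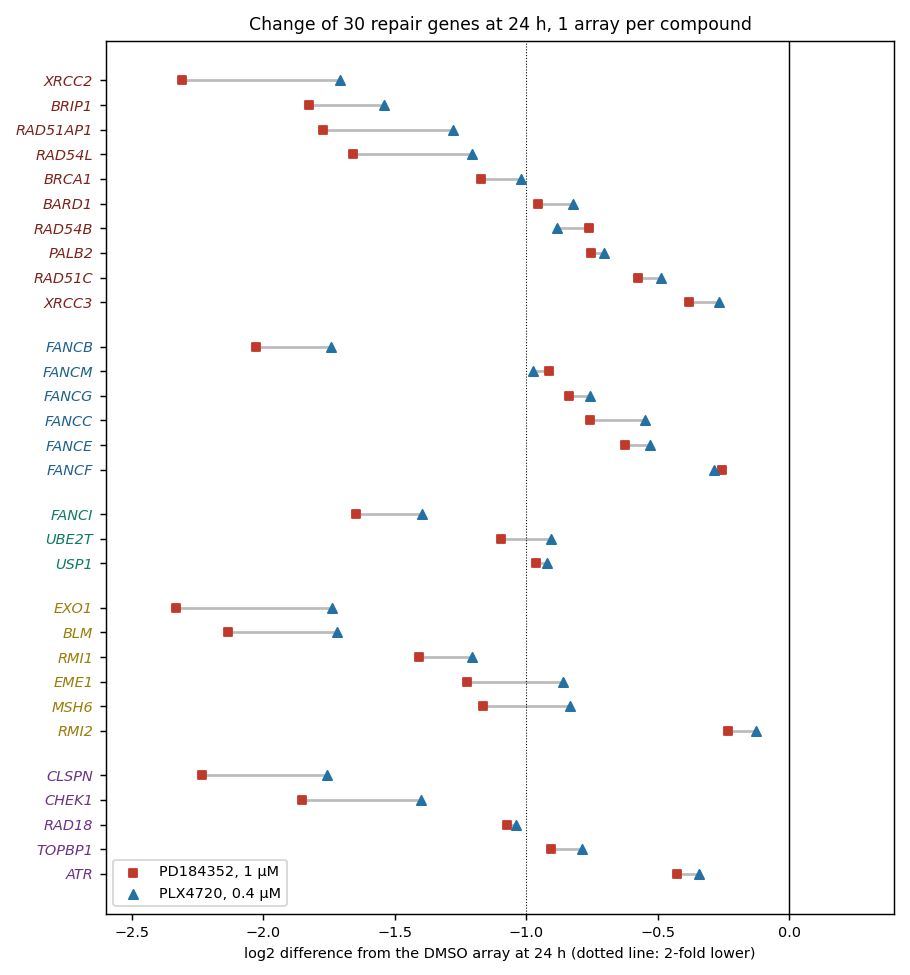
Difference between each inhibitor array and the DMSO array at 24 h (log2, x axis) for the 30 repair genes (y axis, grouped by role in 5 colours: recombination, Fanconi core complex, FANCI switch, dissolution with nuclease and mismatch repair, checkpoint), with 1 array per point, squares for PD184352 and triangles for PLX4720. All points lie below 0, and EXO1, XRCC2, CLSPN, BLM and FANCB lie farthest to the left.

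The DNA before the start sites of the repair genes was searched on both strands for the letters of the E2F site core. The search used RefSeq windows of GRCh38.p14 that run from 250 bases before to 50 bases after a start. The core was taken as TTCCCGC and as 3 variants, of which the first was TTGGCGC, the second was TTCGCGC and the last was TTGCCGC, and matches can overlap. Of the 30 genes 27 had a window in the table, and 19 of these 27 (70.4%) held a core in at least 1 window, against 22.9% of the 10190 tested genes with a window and 15.3% of all 27305 genes in the table. The share was 78.3% for 23 DNA replication genes, 61.5% for 13 base excision repair genes, 46.7% for 15 nucleotide excision repair genes, 38.7% for 31 further recombination, Fanconi and mismatch repair genes and 33.3% for 9 end joining genes, so the core was not particular to the 30 genes. Counted by window the shares were 64.1% of 39, 17.5% and 13.0%, and the median GC content of the windows was 64.3% for the repair genes and for the tested genes alike. The single core TTCCCGC was found for 51.9% of the repair genes and 11.8% of the tested genes. A longer match, with a T before any of the 4 cores, was found for 25.9% of the repair genes and 6.03% of the tested genes. For the DNA replication genes that share was 52.2%. The CCAAT box, searched as CCAAT on both strands, was found for 55.6% and 41.7%, and the letters TTTGAA, a core of the cell cycle homology region, for 14.8% and 13.2%. A match is a string of letters and not a shown binding site, and a part of E2F factors in the changes was not tested.

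The 120 bases before a start are shown for 6 genes with a core inside that stretch and for 3 without one. Changes at 24 h of the genes shown ran from −1.93 (BLM) to −0.39 (ATR). EME1 was at −1.04 and TOPBP1 at −0.85, beside a median of −1.00 for the 30 genes. BRCA1 (−1.10), MSH6 (−1.00), FANCG (−0.80) and FANCC (−0.65) also hold a core in that stretch and are not shown. Each runs 5′ to 3′ along the gene's strand, with the core in capitals, as its reverse complement where it lies on the other strand.
BLM (chr15:90717226-90717345, plus strand): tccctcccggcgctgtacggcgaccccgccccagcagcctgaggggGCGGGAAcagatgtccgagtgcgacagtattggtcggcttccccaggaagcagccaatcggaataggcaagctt
RAD51AP1 (chr12:4538770-4538889, plus strand): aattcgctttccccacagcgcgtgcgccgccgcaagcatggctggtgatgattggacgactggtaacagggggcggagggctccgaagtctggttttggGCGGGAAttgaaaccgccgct
RAD54L (chr1:46247568-46247687, plus strand): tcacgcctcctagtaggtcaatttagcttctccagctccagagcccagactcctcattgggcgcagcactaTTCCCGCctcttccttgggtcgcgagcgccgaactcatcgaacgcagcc
RMI1 (chr9:83980685-83980804, plus strand): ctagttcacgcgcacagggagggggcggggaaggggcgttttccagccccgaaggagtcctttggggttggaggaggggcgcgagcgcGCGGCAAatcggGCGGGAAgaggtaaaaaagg
EME1 (chr17:50373109-50373228, plus strand): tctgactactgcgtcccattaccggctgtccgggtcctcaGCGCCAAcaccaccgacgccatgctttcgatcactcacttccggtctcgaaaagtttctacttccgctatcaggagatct
TOPBP1 (chr3:133661942-133662061, minus strand): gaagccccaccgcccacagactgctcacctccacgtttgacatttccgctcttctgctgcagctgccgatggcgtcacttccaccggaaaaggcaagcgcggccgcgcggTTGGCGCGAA
FANCB (chrX:14873070-14873189, minus strand): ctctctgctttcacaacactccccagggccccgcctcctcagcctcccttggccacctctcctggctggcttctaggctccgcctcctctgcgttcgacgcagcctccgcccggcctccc
CHEK1 (chr11:125626104-125626223, plus strand): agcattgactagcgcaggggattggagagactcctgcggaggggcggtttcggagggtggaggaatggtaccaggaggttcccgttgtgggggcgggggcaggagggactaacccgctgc
ATR (chr3:142578734-142578853, minus strand): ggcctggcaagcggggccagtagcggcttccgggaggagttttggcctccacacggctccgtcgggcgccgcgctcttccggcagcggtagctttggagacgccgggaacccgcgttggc
The core begins at position −74 from the start in BLM, at −21 in RAD51AP1 and at −80 in EME1. RMI1 has a pair of cores in the stretch, and in TOPBP1 a pair overlaps. For EXO1, XRCC2, BRIP1 and USP1 the core lies within the first 50 bases after a start, which are not shown.

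The changes at 24 h are set beside the presence of a core. FANCI, RAD54B and RMI2 had no window and are in neither group. The 19 genes with a core had a median change at 24 h of −1.04 (range −2.04 to −0.27), and the 8 genes with a window and no core had a median of −0.97 (range −1.88 to −0.39). FANCB and CHEK1, shown above without a core, were at −1.88 and −1.63, while FANCF, with a core just after its start, was at −0.27. This split was made with the changes known and has no test.

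Among the recombination genes, all 10 measured were called lower at 24 h, beside 19.2% of all tested genes, with a median of −0.99. XRCC2 encodes a protein that acts early in homologous recombination. It read 9.39, 9.84 and 9.51 (log2) on the DMSO arrays of 2, 6 and 24 h, 9.25, 9.58 and 7.20 with PD184352, and 9.56, 9.57 and 7.80 with PLX4720, so that only the late inhibitor arrays stand apart (change at 24 h −2.01, SE 0.20, limma adjusted p = 4.99e-05). BRIP1, the helicase that binds the BRCA1 protein, read 8.68, 8.94 and 8.72 with DMSO, 8.69, 9.12 and 6.89 with PD184352, and 8.80, 8.86 and 7.18 with PLX4720 (−1.68, SE 0.14, adjusted p = 1.55e-05). Its level at 6 h with PD184352 was the highest of the 9, and its level at 24 h the lowest.

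RAD51AP1 encodes a protein that stimulates the pairing of DNA strands. Its levels were 7.79, 7.78 and 7.58 with DMSO, 7.97, 7.74 and 5.80 with PD184352, and 7.86, 7.76 and 6.30 with PLX4720 (−1.53, SE 0.16, adjusted p = 7.11e-05). RAD54L, a motor protein that remodels the joint between the paired strands, stood at 9.08, 9.15 and 8.95 with DMSO, 8.92, 9.09 and 7.29 with PD184352, and 9.12, 9.18 and 7.74 with PLX4720 (−1.43, SE 0.16, adjusted p = 9.77e-05). In both genes the late inhibitor arrays lay more than 1 log2 unit below all others. Its relative RAD54B was at −0.82 (SE 0.10), and in RAD54B the PLX4720 array was the lower one, at 7.65 against 7.77.

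BRCA1 and its ubiquitin ligase partner BARD1 were at −1.10 (SE 0.11) and −0.89 (SE 0.11), and PALB2, which links BRCA1 to BRCA2, was at −0.73 (SE 0.10). BRCA1 read 7.89, 7.95 and 8.08 with DMSO, 7.67, 7.91 and 6.90 with PD184352, and 7.83, 7.82 and 7.06 with PLX4720. The smallest falls of this group were in RAD51C (−0.53, SE 0.10) and XRCC3 (−0.32, SE 0.09, adjusted p = 0.0233). XRCC3 read 8.19, 8.14 and 7.87 with DMSO, 8.08, 8.15 and 7.49 with PD184352, and 8.17, 8.06 and 7.60 with PLX4720, so its DMSO array of 24 h was below the other DMSO arrays. Its change was −0.60 against the DMSO array of 6 h and −0.52 against the mean of the 3 DMSO arrays, and both were called, while without the PD184352 array of 24 h it was at −0.27 and was not called (adjusted p = 0.113). The 95% interval of the change was −2.46 to −1.56 for XRCC2, and those of XRCC3 (−0.53 to −0.12) and RAD51C (−0.75 to −0.31) overlapped. Differences between genes were not tested.

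**Figure D2:**
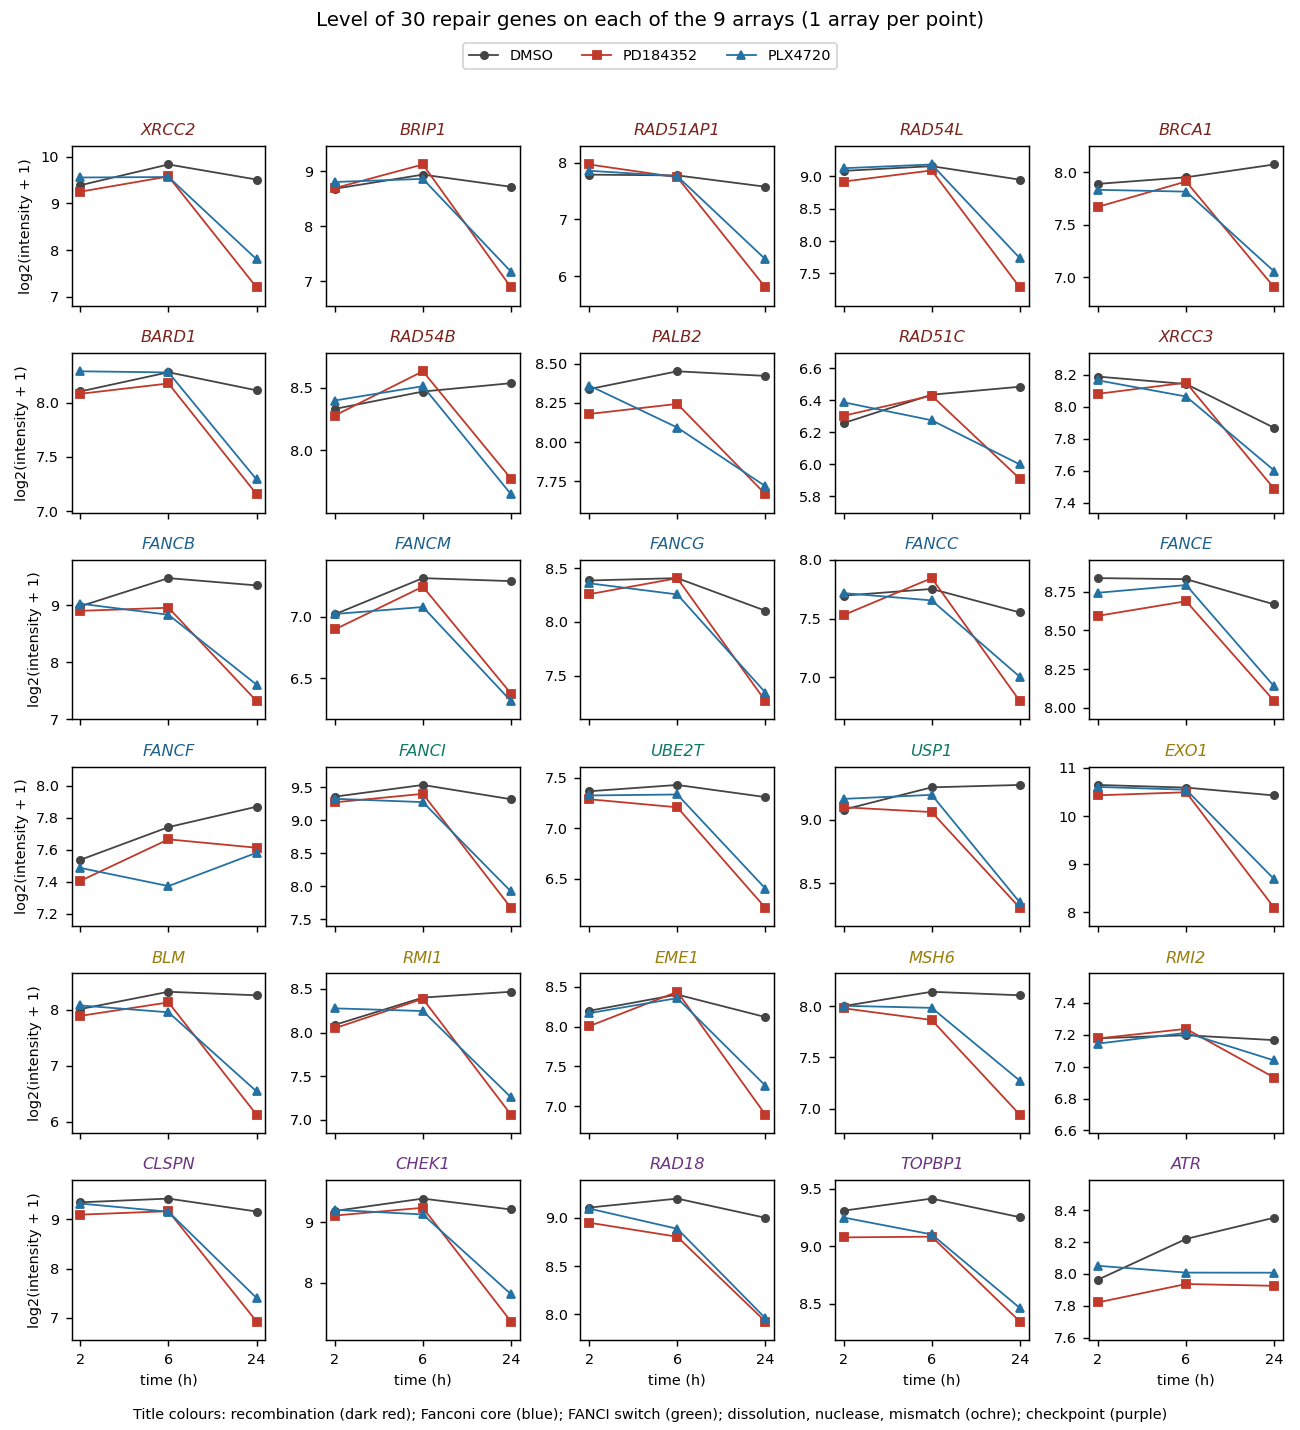
Level (log2(intensity + 1), y axis, at least 1 log2 unit high and set for each gene) of each of the 30 repair genes against time (2, 6 and 24 h, evenly spaced on the x axis), with 1 array per point and lines joining arrays of 1 treatment; gene names are coloured by role. In most panels the 3 treatments lie close together at 2 and 6 h and the PD184352 and PLX4720 points drop at 24 h, while in ATR and FANCF the inhibitor levels of 24 h lie within the range of the earlier arrays.

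Within the Fanconi core complex, the ubiquitin ligase assembly of the pathway, 5 of 6 measured genes were called lower at 24 h. The share was 19.2% over all tested genes. All 6 changes were below 0, with a median of −0.73. FANCB, which sits in the catalytic module of the complex, fell by 1.88 (SE 0.12, adjusted p = 5.56e-06). It stood at 8.98, 9.48 and 9.35 with DMSO, 8.90, 8.96 and 7.32 with PD184352, and 9.03, 8.83 and 7.61 with PLX4720, and it was the only one of the 30 that read lower than DMSO with both compounds by more than 0.5 log2 units at 6 h. The remaining subunits moved less. FANCM, the helicase-like protein that anchors the complex on DNA, was at −0.94 (SE 0.10), FANCG at −0.80 (SE 0.10), FANCC at −0.65 (SE 0.12) and FANCE, which binds FANCD2, at −0.58 (SE 0.10).

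FANCF, an adaptor inside the core complex, did not pass at 24 h (−0.27, SE 0.12, adjusted p = 0.108). Its levels on the DMSO arrays were 7.54 at 2 h, 7.74 at 6 h and 7.87 at 24 h, and they were 7.40, 7.66 and 7.61 with PD184352 and 7.49, 7.37 and 7.58 with PLX4720. The inhibitor arrays of 24 h lay above the DMSO array of 2 h, so the groups overlap. The change was −0.14 against the DMSO array of 6 h and −0.12 against the mean of the 3 DMSO arrays, and neither was called.

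FANCI, which receives the ubiquitin, and the enzymes UBE2T and USP1 were all called lower at 24 h, as were 19.2% of all tested genes. FANCI itself was at 9.36, 9.53 and 9.32 with DMSO, 9.27, 9.40 and 7.67 with PD184352, and 9.32, 9.27 and 7.92 with PLX4720 (−1.52, SE 0.11, adjusted p = 9.26e-06). UBE2T, the conjugating enzyme that works with the core complex, was at −1.00 (SE 0.10). USP1, the protease that removes the ubiquitin again, was at −0.94 (SE 0.09), with an interval of −1.15 to −0.74 beside −1.23 to −0.77 for UBE2T.

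Of the 6 genes for junction dissolution, end resection and mismatch repair, 5 were called lower at 24 h, beside 19.2% of all tested genes. All 6 changes were below 0. EXO1 chews back DNA ends in recombination and mismatch repair. It read 10.65, 10.59 and 10.43 with DMSO, 10.43, 10.50 and 8.10 with PD184352, and 10.61, 10.55 and 8.69 with PLX4720 (−2.04, SE 0.19, adjusted p = 3.11e-05), which placed it 35th from the bottom among the 12785 tested genes. BLM, the helicase that with TOP3A, RMI1 and RMI2 takes apart double Holliday junctions, stood at 8.02, 8.33 and 8.26 with DMSO, 7.89, 8.14 and 6.13 with PD184352, and 8.08, 7.96 and 6.54 with PLX4720 (−1.93, SE 0.16, adjusted p = 1.53e-05).

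The partners of BLM differed from it and from each other. RMI1, the scaffold of the complex, was at −1.31 (SE 0.12), while RMI2, its small partner, was at 7.18, 7.20 and 7.17 with DMSO, 7.18, 7.24 and 6.93 with PD184352, and 7.14, 7.21 and 7.04 with PLX4720. The late inhibitor arrays of RMI2 were its lowest, but by 0.13 to 0.23 log2 units against DMSO, and the change did not pass (−0.18, SE 0.09, adjusted p = 0.154). With the mean of the 3 DMSO arrays as the control it was −0.19 and was called (adjusted p = 0.0285). EME1, the partner of the MUS81 nuclease that cuts junctions, was at −1.04 (SE 0.14), and MSH6, which recognises single mismatches, at −1.00 (SE 0.13).

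All 5 measured checkpoint and damage tolerance genes were called lower at 24 h, beside 19.2% of all tested genes, with a median of −1.06. CLSPN encodes claspin, the adaptor through which ATR activates CHEK1. It stood at 9.35, 9.42 and 9.16 with DMSO, 9.10, 9.17 and 6.93 with PD184352, and 9.32, 9.15 and 7.40 with PLX4720 (−2.00, SE 0.17, adjusted p = 1.75e-05). The kinase gene CHEK1 read 9.19, 9.39 and 9.21 with DMSO, 9.11, 9.24 and 7.36 with PD184352, and 9.20, 9.13 and 7.81 with PLX4720 (−1.63, SE 0.15, adjusted p = 3.36e-05). RAD18, the ubiquitin ligase that opens the way for translesion polymerases, was at −1.06 (SE 0.09), and TOPBP1, an activator of ATR, at −0.85 (SE 0.10).

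ATR, the kinase at the head of this branch, had a different pattern. Over the times it read 7.96, 8.22 and 8.35 with DMSO, whereas it was at 7.82, 7.94 and 7.93 with PD184352 and at 8.05, 8.01 and 8.01 with PLX4720. Its call at 24 h (−0.39, SE 0.11, adjusted p = 0.0196) goes with a DMSO array of 24 h that was its highest of all 9, and the inhibitor arrays of 24 h lie within the range of the earlier arrays. Against the DMSO array of 6 h it was at −0.25 (adjusted p = 0.0934) and against the mean of the 3 DMSO arrays at −0.21 (adjusted p = 0.166).

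The fall was also present without any DMSO array in the difference. When the inhibitor arrays of 24 h were set against the inhibitor arrays of 2 h, 27 of the 30 genes were called lower and 0 higher, beside 19.2% and 22.3% of all tested genes, with a median of −0.98. EXO1 was at −2.13 (SE 0.15), CLSPN at −2.04 (SE 0.14) and XRCC2 at −1.90 (SE 0.16). ATR (0.03, SE 0.09), FANCF (0.15, SE 0.10) and RMI2 (−0.18, SE 0.07) did not pass. Over the same time in DMSO, the 30 genes moved by between −0.32 (XRCC3) and 0.39 (ATR), with a median of 0.02 and with 14 of 30 below 0. Those DMSO differences are between single arrays and have no test.

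At 2 h 0 of the 30 repair genes were called by limma, where 0.0704% of all tested genes were called lower and 0.0156% higher. At an unadjusted limma p below 0.05 the count of repair genes was also 0, and no share of all genes is given at that threshold. At 6 h the only call was FANCB (−0.58, SE 0.12, adjusted p = 0.0330), that is 1 of 30, beside 2.74% of all tested genes called lower and 0.54% higher. This single call is near the background and was lost in 7 of 15 alternatives, without the PD184352 array of 2 or 6 h (adjusted p = 0.0674 and 0.0766) or the PLX4720 array of 2 or 6 h (adjusted p = 0.0674 and 0.159) among them. RAD18 was at −0.35 (SE 0.09, adjusted p = 0.0792) and TOPBP1 at −0.32 (SE 0.10, adjusted p = 0.135) at 6 h, and neither passed. RAD18 was called without the PD184352 or the PLX4720 array of 24 h (adjusted p = 0.0425 for each). The 30 genes had a median change of −0.06 at 2 h and −0.11 at 6 h.

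The change differed between the 3 times for 25 of the 30 genes by limma's F-test in the same fit, beside 14.9% of all tested genes. The median difference between the change at 24 h and that at 2 h was −0.97, and XRCC2 (−2.02), EXO1 (−1.91) and BLM (−1.90) had the largest. XRCC3, FANCE, FANCF, RMI2 and ATR did not pass, with differences between −0.16 and −0.41. FANCC (−0.58, adjusted p = 0.0487), PALB2 (−0.66, adjusted p = 0.0311) and RAD51C (−0.62, adjusted p = 0.0287) passed narrowly. All of them lost the call with no filter on dim genes, and FANCC also with a pseudocount of 16 (−0.53). Each lost its call without the PLX4720 array of 2 h (adjusted p = 0.0877, 0.0639 and 0.0704), FANCC and RAD51C also without the PD184352 array of 2 h (0.0620 and 0.0508) and FANCC without the PD184352 array of 6 h (0.0805). FANCE (−0.41, adjusted p = 0.0724) was called without the PLX4720 array of 24 h (−0.45). It was also called with the dimmest 50% left out and after quantile normalization (−0.44).

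**Figure D3:**
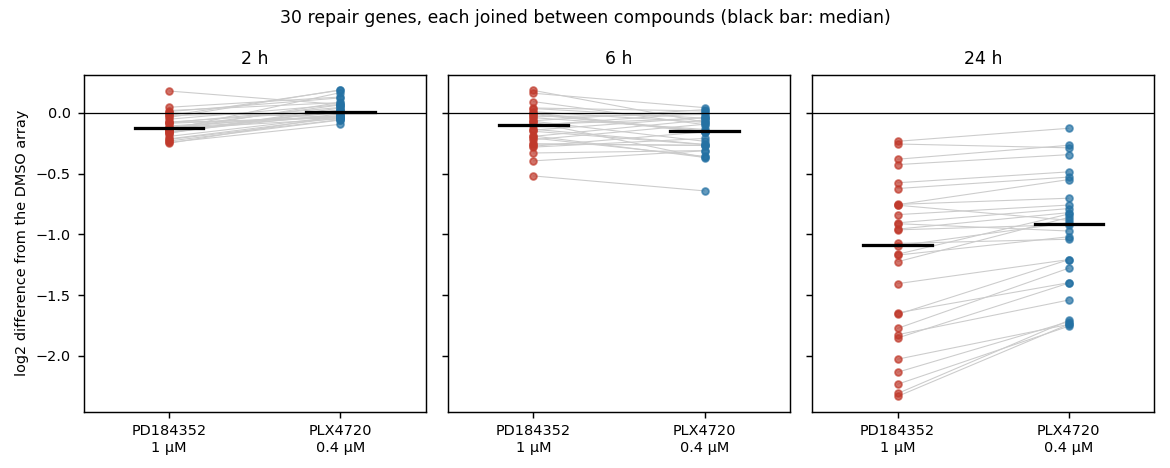
Difference from the time-matched DMSO array (log2, y axis) for the 30 repair genes with PD184352 and PLX4720 at 2, 6 and 24 h, with 1 point per gene, grey lines joining a gene between compounds and black bars at the median. The medians are −0.12 and 0.01 at 2 h, −0.10 and −0.15 at 6 h, and −1.09 and −0.91 at 24 h.

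Both compounds gave the fall at 24 h, and each gene's differences share the same DMSO array. With PD184352 the 30 genes had a median difference of −1.09 from DMSO (range −2.33 to −0.23), and 16 were at least 2-fold lower, against 3.15% of all tested genes. With PLX4720 the median was −0.91 (range −1.76 to −0.13), and 13 were at least 2-fold lower, against 2.39%. The PD184352 array of 24 h read below the PLX4720 array for 27 of 30 genes, where 50.2% of all tested genes did so, and FANCF, FANCM and RAD54B were the exceptions. The gap was 0.60 for XRCC2, 0.59 for EXO1 and 0.50 for RAD51AP1. Over the 10 genes with the largest falls PD184352 minus PLX4720 ran from −0.60 to −0.25, and over the 10 with the smallest falls from −0.21 to 0.12. These are single arrays at different doses, with no test.

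At the earlier times 0 of 30 genes were at least 2-fold lower with either compound. Of all tested genes, 0.0391% were so at 2 h with PD184352 and 0.0391% with PLX4720, and 0.422% and 0.375% at 6 h. The order of the compounds varied with time. The PD184352 array was the lower for 28 of 30 genes at 2 h, but so it was for 70.1% of all tested genes, and for 11 of 30 at 6 h beside 42% of all. In a direct test on the 6 inhibitor arrays, with time as a block, 0 of the 30 genes were called different between the compounds by limma, as were 0% of all tested genes, while 6 of the 30 and 555 of the 12785 had an unadjusted p below 0.05. A fit on all 9 arrays called 0 genes too. This was 1 comparison of compounds, adjusted over all genes. The difference, PD184352 minus PLX4720 over the 3 times, was −0.30 for XRCC2 (95% interval −0.50 to −0.09, adjusted p = 0.887), −0.27 for EXO1 (−0.47 to −0.08, adjusted p = 0.887) and −0.25 for RAD54L (−0.41 to −0.08, adjusted p = 0.854). All 30 intervals lay between −0.50 and 0.25, so a mean difference of 2-fold lay outside each, while smaller differences lay within them. The fit takes 1 difference per gene for all 3 times, so these intervals do not bound the difference at 24 h alone.

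A longer list of the same pathways was also read. Of 55 further recombination, Fanconi and mismatch repair genes 39 had a row and 35 were tested. At 24 h 16 of the 35 were called lower and 2 higher, with a median of −0.20, beside 19.2% and 12.5% of all tested genes. The largest changes were in the nuclease and helicase DNA2 (−1.85, SE 0.13), the helicase MCM8 (−1.60, SE 0.13), the end-joining polymerase POLQ (−1.27, SE 0.12) and the ubiquitin ligase RFWD3 (−1.24, SE 0.12). The called rises, picked out with their values known, were EME2 (0.32, SE 0.09), a relative of EME1, and the helicase RECQL5 (0.27, SE 0.09). Of 9 tested further checkpoint genes 6 were called lower and 0 higher, with a median of −0.75. Those 6 were led by the phosphatase CDC25A (−2.07, SE 0.19), the fork protein TIMELESS (−0.89, SE 0.11), the kinase WEE1 (−0.87, SE 0.14) and the damage mediator MDC1 (−0.78, SE 0.10).

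The other lists of repair, replication and E2F genes were read against the 19.2% of all tested genes called lower and 12.5% called higher at 24 h. In the counts of these lists, fell and rose mean called lower and called higher. Of 11 tested end joining genes, whose products seal breaks directly, 3 fell and 4 rose, with a median of −0.13. The end-joining polymerase POLQ (−1.27) was counted in the longer list above and is not among these 11. RIF1, which shields ends from resection, was at −0.75 (SE 0.09), PRKDC, the DNA-dependent kinase, at −0.37 (SE 0.09) and the ligase partner XRCC4 at −0.37 (SE 0.11). The gap-filling polymerase POLL was at 0.49 (SE 0.11), and SHLD1 (0.33, SE 0.10), POLM (0.28, SE 0.08) and LIG4 (0.28, SE 0.08), picked out with their values known, also rose. Of 15 nucleotide excision repair genes 4 fell and 2 rose, with a median of −0.04, shares near those of all tested genes. The risers were the damage sensors XPC (0.52, SE 0.09) and DDB2 (0.48, SE 0.10), and the largest falls were in GTF2H3 (−0.56, SE 0.10) and RAD23B (−0.45, SE 0.09).

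Of 15 base excision repair genes 7 fell and 0 rose, with a median of −0.31. NEIL3, a glycosylase, was at −1.29 (SE 0.10), PARP2 at −1.02 (SE 0.11), the uracil glycosylase UNG at −1.01 (SE 0.15) and the replicative ligase LIG1 at −0.55 (SE 0.10). Among DNA replication genes all 27 tested were called lower, with a median of −1.28, led by MCM10 (−2.05, SE 0.21), CDC45 (−2.01, SE 0.19), RFC3 (−1.86, SE 0.16) and GINS1 (−1.69, SE 0.17). Of 16 E2F factors and partners 14 fell and 0 rose, with MYBL2 at −1.30 (SE 0.14), E2F8 at −1.30 (SE 0.12), E2F7 at −1.18 (SE 0.11) and RBL1 at −1.12 (SE 0.11). The lists hold ERCC1 and ERCC4 more than once and were compared by counts and medians, without a test of the difference between them.

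**Figure D4:**
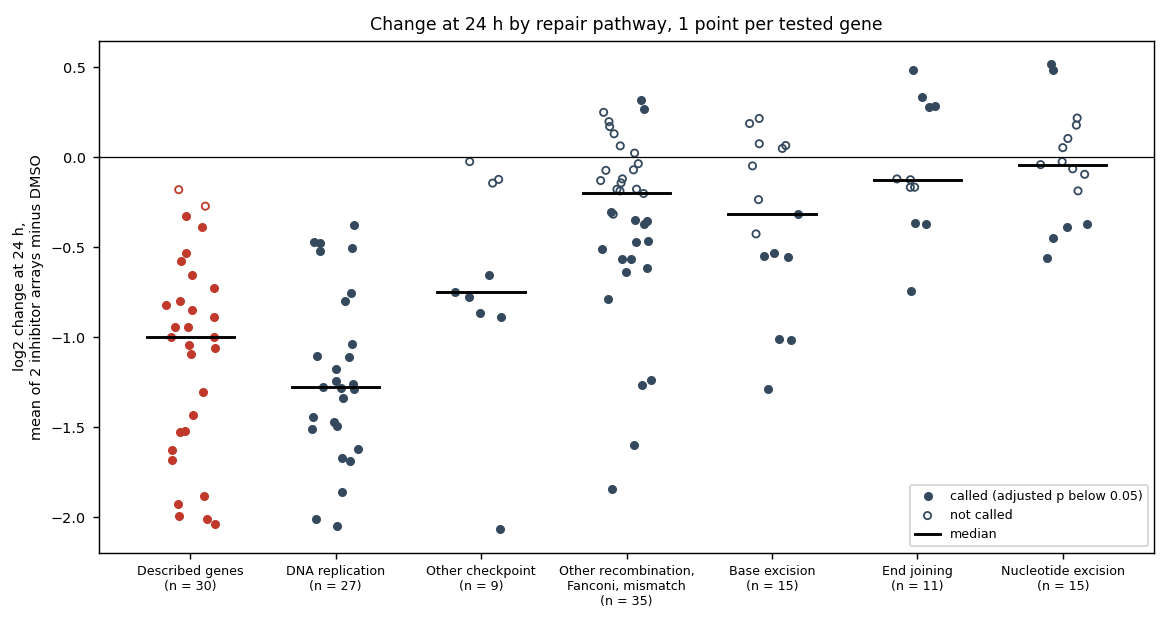
Change at 24 h (log2, mean of the 2 inhibitor arrays minus the DMSO array, y axis) for each tested gene of 7 lists (x axis), with the 30 repair genes in red; filled points were called at an adjusted p below 0.05, open points were not, and black bars are medians. The medians run from −1.28 for DNA replication and −1.00 for the repair genes described to −0.04 for nucleotide excision repair.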

How the data were processed

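The authors deposited linear intensity values in 1 column for each treatment and time. RMA, limma and R 2.8.0 are listed by the submitters' processing notes, with no role or order, and a genome build was not given in the sources used here. Of 35446 rows, 19380 carried 1 gene symbol in the platform table, 3339 several, and 12727 were not in it. Log2(value + 1) was computed with no further normalization, the dimmest 25% of 17047 genes were left out, and limma 3.58.1 in R 4.3.3 was run on all others with Benjamini-Hochberg adjustment. The first fit had the 6 means of state (DMSO or inhibitor) by time (residual degrees of freedom 3), and the second the 6 inhibitor arrays with time as a block (2). In simulations the first fit recovered 40% of changes of 0.5 log2 units at 24 h and 86% of changes of 1 log2 unit. The second fit recovered 61% and 95% of differences of these sizes between the compounds. Each simulation changed 200 of the 12785 genes and drew the noise of every array, DMSO included, from the residual spread of the first fit. In the data 19.2% of genes were called lower and 12.5% higher at 24 h. The percentages recovered hold for the simulated setting and are not the power of these data. A gene that did not pass can still have changed by 0.5 log2 units.

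The number of arrays limits the precision, and with 1 array per treatment and time no p-value measures the spread between cultures. 0 pairs of columns were identical. The genes and lists were chosen with earlier results of these data known. Values on every array were given for the 10 genes with the largest change at 24 h, for the 4 with the smallest and for BRCA1, which was added with its values known. Of each other list up to 4 genes with the largest changes were named, besides the few that the text marks as picked with their values known. The alternatives were the filter on dim genes (none, or 50%), a pseudocount of 16, quantile normalization, the mean of all rows of a gene, a variance trend, other DMSO controls, all 9 arrays for the compounds, and leaving out each array.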

Additional observations from a re-analysis of the deposited data

Results flagged for a closer look

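For 25 of the 30 repair genes, the inhibitor change differed between the 3 times by limma's F-test at an adjusted p below 0.05, and the genes are given here for that reason. The value is the change at 24 h minus the change at 2 h, on the log2 scale. The largest differences were those of 11 genes, with XRCC2 at −2.02, EXO1 at −1.91, BLM at −1.90, FANCB at −1.87, CLSPN at −1.86, BRIP1 at −1.75, RAD51AP1 at −1.65, CHEK1 at −1.60, FANCI at −1.46, RMI1 at −1.38 and RAD54L at −1.37. A middle group had USP1 at −0.99, MSH6 at −0.99, RAD18 at −0.97, BARD1 at −0.97, BRCA1 at −0.96, UBE2T at −0.94, EME1 at −0.93, FANCM at −0.88 and RAD54B at −0.83. The smallest differences that passed were FANCG at −0.72, TOPBP1 at −0.70, PALB2 at −0.66, RAD51C at −0.62 and FANCC at −0.58. The test sets the times against the spread between compounds, with 1 DMSO array at each time.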

How the results depend on the processing

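Of 2556 recomputed values of single repair genes, 2528 kept their side of the threshold, 20 lost a call, 8 gained one and 0 called values changed direction. Among values not called in either setting, 83 changed sign. Some of these runs could not move a value, so the count of kept values overstates how much was tried. Leaving out the DMSO array of 2 or 6 h leaves the change at 24 h and its spread as they were. Taking the mean of all rows can alter the levels of only 1 repair gene, USP1. At 24 h the count of 28 genes called lower and the calls over all genes moved by less than 1.5 times in every alternative run. Leaving out the DMSO array of 24 h leaves no control there and was not possible. At 6 h the count of 1 repair gene was 0 with no filter, after quantile normalization or with the DMSO 24 h array as control, 2 with the dimmest 50% left out, and 0 to 2 when 1 array was left out. The 350 genes called lower at 6 h were 214 with no filter, 213 after quantile normalization, 585 with the DMSO 24 h array as control, and 175 (without the PLX4720 6 h array) to 636 (without either inhibitor array of 24 h) when 1 array was left out, with 186 without the PD184352 6 h array. The 9 called lower at 2 h were 1 with no filter, 33 with the dimmest 50% left out, 21 with a pseudocount of 16, 0 after quantile normalization, 17 with the mean of all rows, 226 with the DMSO 6 h array as control, and 0 (without either inhibitor array of 2 h) to 70 (without either of 24 h) when 1 array was left out. With that DMSO 6 h control the median of the repair genes at 2 h was −0.18. Against 2 h, the median of the inhibitor arrays at 24 h was −1.05 to −0.86 when 1 array was left out. Between compounds 24 genes of all were called with the dimmest 50% left out and 0 to 25 (without either 6 h array) when 1 array was left out, none of them a repair gene (0 of 30). Nucleotide excision repair genes called lower at 24 h numbered 2 with the mean of the 3 DMSO arrays as control. The cause of these shifts was not tested. No paired analysis was possible because each treatment and time has 1 array and the labels give no replicate numbers. With 1 array per point, signal over background could not be set against a replicate spread.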

Other observations

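FANCL and ATRIP were measured only on rows that also name another gene, and their values are given here without a test. The row of FANCL and VRK2 read 7.02, 7.29 and 7.45 (log2) with DMSO at 2, 6 and 24 h, 7.02, 7.15 and 7.36 with PD184352, and 7.17, 7.14 and 7.26 with PLX4720. The row of ATRIP and TREX1 read 8.82, 8.86 and 8.49 with DMSO, 8.60, 8.88 and 8.33 with PD184352, and 8.75, 8.87 and 8.44 with PLX4720. On both rows the inhibitor arrays of 24 h were within 0.2 log2 units of the DMSO array, and the share of signal from each gene is unknown.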
